A study of Mus musculus with 4 samples.

Results

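The spots described here are the collecting duct principal cell rich spots of 4 mouse kidney sections, 555 spots of 11130. They were chosen by the RNA of 4 genes that mark the principal cell: Aqp2, Aqp3, Fxyd4 and Avpr2. In each spot the count of each of these genes, in unique molecular identifiers (UMIs), was divided by the UMIs of all genes that are not mitochondrially encoded, multiplied by 10000 and log-transformed, and the 4 values were summed to a score. The top 5% of the spots of each section by this score were taken as members, which gave 126 of 2528 and 168 of 3362 spots in the Control sections and 132 of 2650 and 129 of 2590 spots in the Uox_KO sections. The kidneys came from male C57BL/6J mice, were fresh frozen and cut at 10 µm, and RNA was captured on Visium slides. Uox_KO mice lack exons 2 to 4 of Uox, the gene of urate oxidase, which breaks down uric acid in rodents, and the mice are a model of hyperuricemia. Control mice are wild-type males by the study's design text, and no age is given. Each section came from its own mouse by its title, so n = 2 per genotype. Values in pairs are those of section 1 and section 2 of a genotype. Whether sections were handled as separate batches is not given. Uox itself had 0 UMIs in the member and in the other spots of all 4 sections, Control included, so it checks no label. A Visium spot covers several cells, so the member spots are rich in principal cell RNA and are not principal cells.

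Principal cells line the connecting tubule and the collecting duct beside the intercalated cells. Vasopressin acts on them through the V2 receptor (Avpr2) and cyclic AMP, which brings the water channel aquaporin 2 (Aqp2) to the luminal membrane and raises its transcription, while aquaporin 3 (Aqp3) lets the water out on the other side. Aldosterone acts through the mineralocorticoid receptor (Nr3c2), guarded from glucocorticoids by Hsd11b2, on the epithelial sodium channel (Scnn1a, Scnn1b, Scnn1g), and Fxyd4 is a regulator of the sodium pump.

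The promoter window of Aqp2 is shown because Aqp2 was the marker with the most UMIs in the member spots and because its transcription is known to respond to cyclic AMP. The window runs from 250 bases before to 50 bases from the gene's start, at chr15:99578806-99579105 on the plus strand of GRCm38 (RefSeq). Capitals mark the core letters of a cyclic AMP response element, TGACG, which run on the opposite strand here. They also mark a motif of GATA factors, GATAAG, likewise on the opposite strand.
Aqp2: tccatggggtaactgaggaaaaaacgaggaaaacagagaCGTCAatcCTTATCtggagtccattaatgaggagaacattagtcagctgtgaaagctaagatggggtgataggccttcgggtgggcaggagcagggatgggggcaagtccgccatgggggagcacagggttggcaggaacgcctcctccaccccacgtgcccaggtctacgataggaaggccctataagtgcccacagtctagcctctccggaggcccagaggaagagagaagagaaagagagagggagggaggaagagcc
Both matches lie about 200 bases before the start, with first bases at -211 and -203 relative to it. Over 32851 RefSeq promoter windows of the same length, 20.8% held the first and 7.44% held the second on either strand. The windows of Aqp3, Fxyd4 and Avpr2 held neither run of letters. Such a match describes letters and shows no binding.

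The scores that chose the spots spread more widely in Uox_KO than in Control. The lowest score inside the members and the highest outside them were 4.06 and 4.05 in Control section 1, 4.40 and 4.40 in Control section 2, 2.83 and 2.82 in Uox_KO section 1 and 4.204 and 4.185 in Uox_KO section 2. The members of Uox_KO section 1 thus reached further down than those of the other 3 sections. At the upper end the highest scores were 7.17 and 8.10 in Control and 11.7 and 11.3 in Uox_KO, and scores of 8 or more were found in 0 and 1 spots in Control and in 17 and 14 spots in Uox_KO. The median score of the other spots was 1.10 and 1.17 in Control and 0.301 and 0.630 in Uox_KO. No UMI of any of the 4 genes was found in 3.60% and 4.05% of all spots in Control. In Uox_KO these shares were 42.3% and 26.3%. Depth differed too: the other spots had medians of 37813 and 32292.5 UMIs in Control and 16687 and 19593 in Uox_KO. Aqp2 was found in 75.35% and 76.08% of the other spots in Control and in 24.66% and 44.33% in Uox_KO. With spots thinned to equal UMIs and shallower spots left out, these shares were 29.35% and 34.79% in Control. They were then 11.78% and 22.19% in Uox_KO. The part of depth in the spread of scores was not tested.

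**Figure D1:**
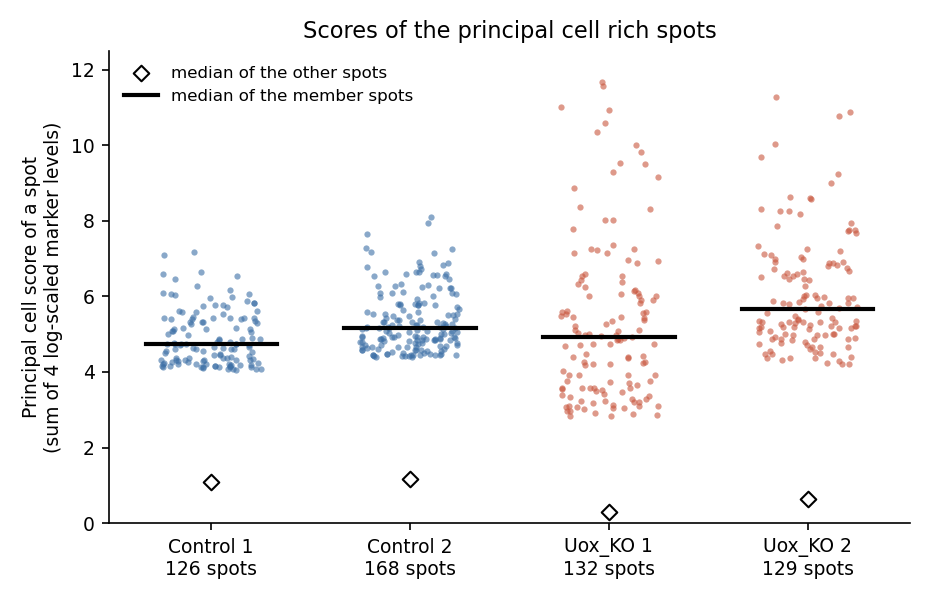
Principal cell score (sum of 4 log-scaled marker levels, no unit) of every member spot by section, with the median of the members (bar) and of the other spots (diamond). Member scores end at 7.17 and 8.10 in the Control sections and at 11.7 and 11.3 in the Uox_KO sections, and only Uox_KO section 1 has members below 4.

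Aqp2, the vasopressin-regulated water channel, took 599 and 727 unscaled CPM in the Control member spots and 1610 and 1654 in the Uox_KO member spots, where unscaled CPM is the gene's UMIs per 1000000 UMIs of those spots. Outside the members it took 75.4 and 87.4 unscaled CPM in Control and 20.3 and 49.9 in Uox_KO. Over whole sections its level was 97.5 and 115 unscaled CPM in Control and 94.4 and 133 in Uox_KO, so the sections of the 2 genotypes overlapped. Whole-section levels of Aqp3 were 60.9 and 62.7 unscaled CPM in Control and 36.9 and 41.5 in Uox_KO, and those of Fxyd4 were 33.6 and 39.3 in Control and 23.1 and 24.7 in Uox_KO, with both Uox_KO sections below both Control sections. Avpr2 overlapped again, at 15.2 and 18.6 in Control and 11.4 and 18.4 in Uox_KO. The member spots held 25.96% and 27.5% of all Aqp2 UMIs of their section in Control, and 79.5% and 64.5% in Uox_KO. Avpr2, the vasopressin receptor, took 88.9 and 89.3 unscaled CPM in Control members and 150 and 175 in Uox_KO members, with 24.7% and 21.0% of the section's UMIs inside them in Control and 61.5% and 49.2% in Uox_KO. Aqp3, the basolateral water channel, took 200 and 226 unscaled CPM in Control members and 249 and 283 in Uox_KO members, with 13.8% and 15.8% of its UMIs inside them in Control and 31.5% and 35.3% in Uox_KO. Fxyd4, the sodium pump regulator, overlapped between genotypes at 190 and 252 unscaled CPM in Control members and 248 and 168 in Uox_KO members. The share of Fxyd4 UMIs inside the members was 23.9% and 28.02% in Control and 50.04% and 35.3% in Uox_KO. These 4 genes chose the spots, so their levels are a description and were not tested. With each spot thinned to 5000 UMIs before scoring, the Aqp2 shares were 28.8% and 29.2% in Control and 76.3% and 61.1% in Uox_KO. Fewer principal cells and less RNA per cell cannot be told apart in such sums.

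**Figure D2:**
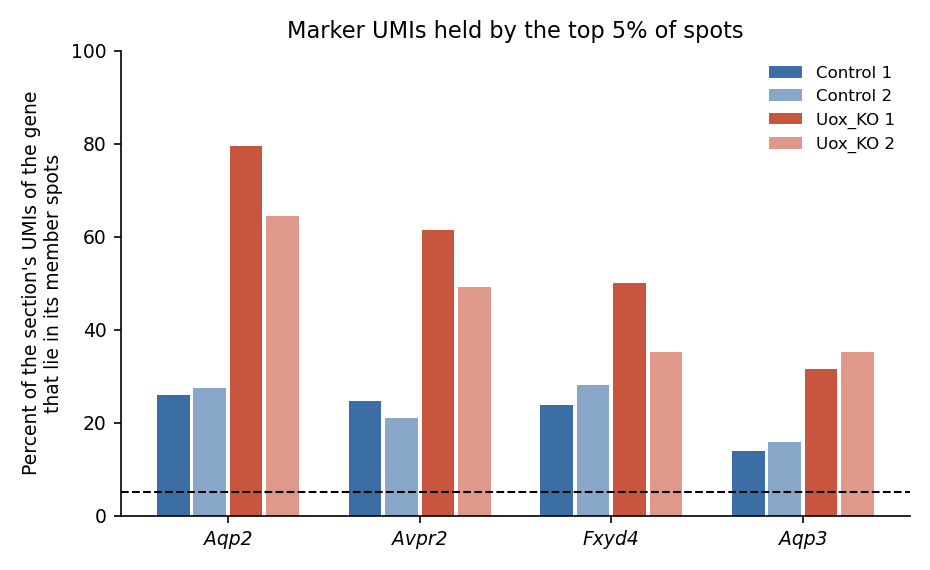
Percent of all UMIs of a marker gene in a section that lie in its member spots, by gene and section (bars, 1 per section). The dashed line is the 5% of spots that the members make up; for Aqp2 the bars stand at 25.96% and 27.5% in Control and at 79.5% and 64.5% in Uox_KO.

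Each marker was also looked at in spots chosen by the other 3, so that it had no part in the choice. Aqp2 was then higher in the chosen spots than in the rest by 7.04-fold and 7.25-fold in Control and by 53.4-fold and 27.0-fold in Uox_KO. Avpr2 was higher by 5.39-fold and 4.69-fold in Control and by 27.4-fold and 15.6-fold in Uox_KO. Fxyd4 was higher by 5.88-fold and 7.03-fold in Control and by 18.3-fold and 8.93-fold in Uox_KO, and Aqp3 by 3.22-fold and 3.73-fold in Control and by 8.16-fold and 9.52-fold in Uox_KO. For all 4 genes both Uox_KO sections lay above both Control sections in this fold, and below them in the level in the rest. In the chosen spots the level was higher in both Uox_KO sections for Aqp2, Aqp3 and Avpr2. That of Fxyd4 overlapped there, at 164 and 219 unscaled CPM in Control and 234 and 155 in Uox_KO. The choice by 3 genes shared between 70.5% and 92.4% of its spots with the choice by all 4.

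The member spots differed between genotypes in depth and in the other RNA they held. They summed to 3949782 and 4715749 UMIs in Control and 2513358 and 2966561 in Uox_KO, with medians of 30346 and 28041 UMIs per spot in Control and 16433 and 19690 in Uox_KO. Mitochondrially encoded genes took 12.49% and 13.1% of member UMIs in Control and 14.0% and 18.0% in Uox_KO, and Malat1, a nuclear RNA, 146 and 93.3 unscaled CPM in Control and 347 and 258 in Uox_KO. The proximal tubule S1 and S2 list (9 genes) summed to 8227 and 8030 unscaled CPM in Control members and to 3608 and 4125 in Uox_KO members. The macrophage list (12 genes) summed to 150 and 153 unscaled CPM in Control members and 1374 and 902 in Uox_KO members. The adipocyte list (7 genes) summed to 1.01 and 2.33 unscaled CPM in Control members and 164 and 458 in Uox_KO members, where Lep was at 0 in both sections. The urothelium list (8 genes) summed to 1.77 and 1.48 unscaled CPM in Control and 32.2 and 5.06 in Uox_KO. Spots with 10 or more UMIs of these last 2 lists per 10000 numbered 0 and 0 in Control members and 12 and 15 in Uox_KO members, and the tests below were also run without them. The urea transporter of the inner medullary collecting duct, Slc14a2, had 0 UMIs in the Control members and some UMIs in the members of both Uox_KO sections. By the thin limb and inner medulla list, 13.5% and 14.9% of Control members were in the top 5% of their section. In Uox_KO these shares were 2.27% and 1.55%. Array barcodes are positions that recur on every slide: 1861 to 2539 barcodes were shared between 2 sections, of which 5 to 8 were members in both.

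Intercalated cell RNA lay in the same spots. Of the member spots, 37.3% and 34.5% in Control and 58.3% and 57.4% in Uox_KO were also among the top 5% of their section by the intercalated cell list, where 4.98% to 4.997% of all spots are by construction. For the connecting tubule list these shares were 11.9% and 7.74% in Control and 28.8% and 36.4% in Uox_KO. For the macrophage list they were 9.52% and 11.3% in Control and 1.52% and 0.775% in Uox_KO. Both Uox_KO shares stood above both Control shares for the intercalated cell and connecting tubule lists and below them for the macrophage list, which was not tested over 2 sections per genotype.

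Levels below in CPM are scaled together over the 8 sums of member and other spots by the trimmed mean of M-values (TMM). Against the other spots of the same section, 8.42% of 14709 genes tested were higher in the member spots and 12.4% were lower at an adjusted p below 0.05 (edgeR, section as a block). The spots were chosen by RNA of the same spots, so these counts describe what lies beside the markers and are no support for the choice. Without Uox_KO section 1 there were 1959 calls in place of 3060, 20.8% of the genes tested. Mcoln3, an endolysosomal cation channel, stood highest among the genes outside the score that the naming rule allowed. It was at 31.5, 35.6, 39.8 and 35.0 CPM in the members of Control sections 1 and 2 and Uox_KO sections 1 and 2 and 4.15, 4.34, 0.884 and 1.66 CPM in the other spots. Kcne1, a potassium channel subunit, was at 63.8, 73.9, 117 and 173 CPM inside and 9.85, 11.3, 2.67 and 7.72 CPM outside. Hsd11b2, the enzyme that guards the mineralocorticoid receptor, was at 812, 882, 748 and 1080 CPM inside and 147, 175, 19.7 and 50.9 CPM outside. Apela, a peptide ligand of the apelin receptor, and Spink8, a protease inhibitor family member, followed with log2 differences of 3.31 and 3.12. The other genes among the 10 highest were Scnn1b of the sodium channel and 4 intercalated cell genes: Slc26a4, the bicarbonate exchanger pendrin, Hmx2, Atp6v1g3 and Insrr. All 14 intercalated cell genes, 5 of 6 connecting tubule genes, 10 of 15 principal cell transcription factors and 16 of 22 collecting duct epithelium genes were higher in the members, with median log2 differences of 2.83, 1.74, 1.10 and 1.25 beside -0.04 over all genes tested. The connecting tubule count was 2 without Uox_KO section 1 and 3 without Uox_KO section 2. In the collecting duct epithelium list Dcdc2a and Ly6d were lower. The S1 and S2 list of the proximal tubule had 9 of 9 genes lower (median -0.52), and 0 of 12 macrophage genes passed in either direction. The 10 largest deficits among the genes that the naming rule allowed were led by fat genes. Ucp1, the brown fat uncoupling protein, was at 192 and 261 CPM in the other spots of Uox_KO and at 7.55 and 26.2 CPM in the members. Adig, Prkar2b, Cfd, Adipoq, Apoc1, Cidec, Retn, Hp and Scd1 made up the rest. In Control section 1 Ucp1 had 0 UMIs in both spot classes. The adipocyte list summed to 2.94 and 17.4 unscaled CPM in the other spots of Control and to 1169 in those of Uox_KO section 1.

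Within the members, Hsd11b2 and Scnn1b, which had no part in the score, were higher where the score was higher. When the members of a section were split into 4 groups of 31 to 42 spots by score, Hsd11b2 went from 1092 unscaled CPM in the highest group to 566 in the lowest in Control section 1 and from 1042 to 690 in Control section 2. In Uox_KO it went from 1657 to 237 in section 1 and from 1692 to 677 in section 2. Scnn1b, the beta subunit of the sodium channel, went from 240 to 120 and from 282 to 174 unscaled CPM in Control and from 587 to 134 and from 498 to 237 in Uox_KO. Slc26a4 of the intercalated cell went from 384 to 247 and from 440 to 282 in Control and from 350 to 72.8 and from 348 to 161 in Uox_KO. Slc34a1, the proximal tubule phosphate carrier, ran the other way in all 4 sections, from 4560 to 5162 and from 4254 to 5118 in Control and from 2024 to 2392 and from 2028 to 2912 in Uox_KO. Other collecting duct genes did not run with the score in every section. Gata3 was at 18.3, 20.6, 19.4 and 17.3 unscaled CPM from the highest to the lowest group in Control section 2 and at 33.5, 39.7, 21.8 and 32.4 in Uox_KO section 1. Krt8 went from 410 to 536 in Uox_KO section 1. The lowest group of Uox_KO section 1 held less Hsd11b2 than any other group of members. These are descriptions of spots within sections, and the median UMIs per spot were also lower at lower scores in Uox_KO section 1, from 22520 to 10150.

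**Figure D3:**
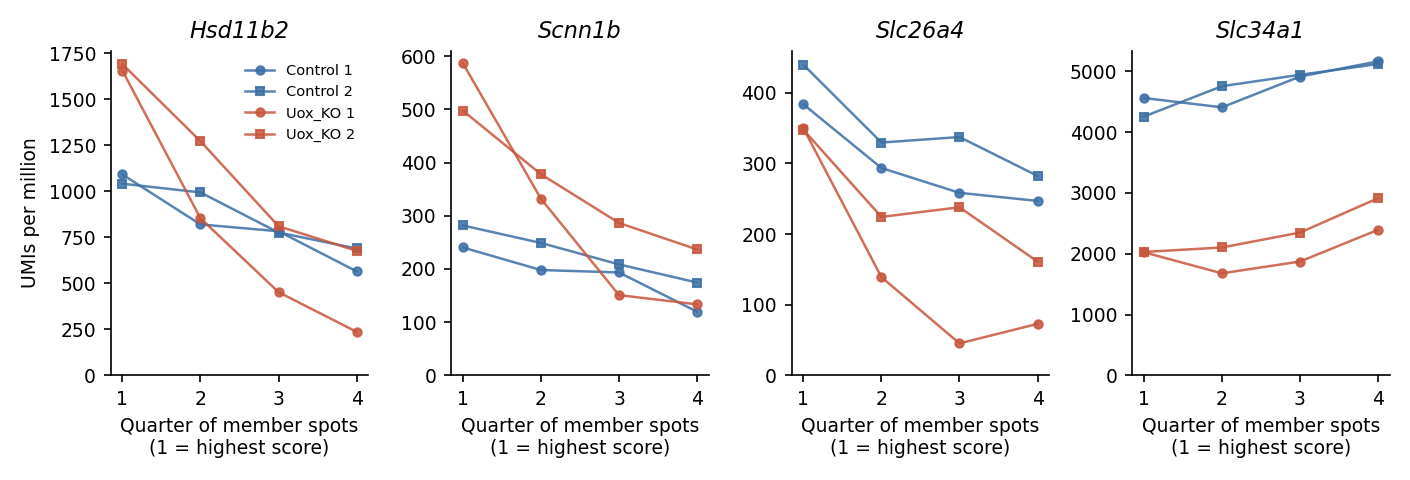
Unscaled CPM of 4 genes in the member spots, split into 4 groups by score within each section (1 is the highest), 1 line per section. Hsd11b2, Scnn1b and Slc26a4 decline from the first group to the fourth in every section and Slc34a1 ends higher than it began.

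Between genotypes, 3544 of 11893 genes tested differed in the member spots at an adjusted p below 0.05 (29.8%), of which 1817 (15.3%) had more and 1727 (14.5%) had less RNA in Uox_KO. The quasi-likelihood test of edgeR was run on the sums over the member spots of each section, and adjusted p below are from it unless said otherwise. The median log2 difference over all genes tested was -0.01. Without Control section 1 there were 1660 calls and without Control section 2 there were 1553, of which 1645 and 1543 were among the 3544. A fit with 1 section left out assumes that the lone section of its genotype varies like the pair of the other. The same test on sums over the other spots, which rest on far more UMIs, called 67.5% of 16293 genes, 34.7% higher and 32.7% lower.

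Of 20 tested genes of aldosterone action and sodium transport, 3 were higher and 3 lower, with a median log2 difference of 0.09, which is close to the 15.3% and 14.5% over all genes. Without Control section 1 there were 0 higher and 2 lower, without Control section 2 there were 0 and 1, without Uox_KO section 1 there were 8 and 4, and without Uox_KO section 2 there were 2 and 5. Hsd11b2 did not pass the test (log2 difference 0.12 ± 0.17, adjusted p = 0.647, where ± gives the SE here and below), and its Uox_KO sections lay on either side of both Control sections. The channel subunit Scnn1a was at 112 and 119 CPM in Control and 159 and 241 CPM in Uox_KO, a rise of 0.81 ± 0.16 on the log2 scale (adjusted p = 0.00262). Scnn1b was at 187 and 230 CPM in Control and 278 and 337 CPM in Uox_KO and rose by 0.57 ± 0.14 (adjusted p = 0.00806), and Scnn1g was at 92.0 and 102 CPM in Control and 109 and 221 CPM in Uox_KO and rose by 0.78 ± 0.23 (adjusted p = 0.0248). Both Uox_KO sections lay above both Control sections for all 3 subunits. Prss8, the channel-activating protease prostasin, was at 322 and 324 CPM in Control and 206 and 200 CPM in Uox_KO and fell by 0.66 ± 0.11 (adjusted p = 9.17e-04). Fxyd2, the gamma subunit of the sodium pump and abundant in other tubule segments too, was at 5776 and 6066 CPM in Control and 2529 and 3106 CPM in Uox_KO and fell by 1.06 ± 0.19 (adjusted p = 9.57e-04), and the clock gene Per1 fell by 0.80 ± 0.21 (adjusted p = 0.0106). Kcne1, outside the list, rose by 1.09 ± 0.17 (adjusted p = 3.67e-04). Sgk1, a kinase induced by aldosterone, was at 121 and 122 CPM in Control and 122 and 132 CPM in Uox_KO, the potassium channel Kcnj1 at 221 and 225 CPM and 198 and 277 CPM, and the receptor Nr3c2 at 17.5 and 14.6 CPM and 11.0 and 17.3 CPM, with adjusted p of 0.640, 0.646 and 0.684. The calls of the channel subunits rested on both Control sections: without Control section 1 the adjusted p of Scnn1a, Scnn1b and Scnn1g were 0.0798, 0.244 and 0.210, and without Control section 2 they were 0.0588, 0.0618 and 0.146. Fxyd2 was at 0.0751 and 0.0944 and Per1 at 0.0355 and 0.126 without those sections, and Scnn1g was at 0.270 without Uox_KO section 2.

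Among genes of vasopressin signalling and water transport other than the markers, 4 of 20 tested rose and 4 fell (median 0.22), again near the share over all genes. These counts were 1 and 2 without Control section 1 and 1 and 1 without Control section 2. Aqp11, an intracellular aquaporin that is strongest in the proximal tubule, was at 58.7 and 57.2 CPM in Control and 23.7 and 29.9 CPM in Uox_KO and fell by 1.09 ± 0.15 on the log2 scale (adjusted p = 1.37e-04). Myo5b, a motor of recycling vesicles, fell by 0.71 ± 0.15 (adjusted p = 0.00389, and 0.109 without Control section 2), and Gnas, the stimulatory G protein subunit, fell by 0.45 ± 0.13 (adjusted p = 0.0170). Aqp4, the other basolateral water channel of the principal cell, was low, at 4.07 and 4.50 CPM in Control and 8.93 and 7.56 CPM in Uox_KO, and rose by 0.94 ± 0.32 (adjusted p = 0.0417). Aqp6, an intercalated cell aquaporin, rose by 0.49 ± 0.15 (adjusted p = 0.0276), the protein kinase A subunit Prkar1a by 0.41 ± 0.12 (adjusted p = 0.0205), and Aqp1 of the proximal tubule fell by 0.50 ± 0.16 (adjusted p = 0.0333). Prkar2b, the remaining rise, is also a fat gene and stood at 0.254 and 0.429 CPM in Control and 3.09 and 7.88 CPM in Uox_KO. Adenylyl cyclase Adcy6 did not pass the test, at 44.7 and 55.1 CPM in Control and 40.9 and 44.4 CPM in Uox_KO. Without Control section 1 the adjusted p of Gnas, Aqp4, Aqp6, Prkar1a and Aqp1 were 0.263, 0.219, 0.128, 0.269 and 0.195, and without Control section 2 they were 0.188, 0.182, 0.279, 0.198 and 0.238. Leaving out a Uox_KO section ended the calls of Aqp4 (0.127 without section 1), Aqp6 (0.198 without section 2) and Aqp1 (0.0666 without section 2).

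Genes of the collecting duct epithelium moved mostly upward: 14 of 20 tested members of the list rose in Uox_KO and 0 fell (median log2 difference 1.24), beside 15.3% and 14.5% over all genes. Leaving out 1 section at a time gave medians of the list between 1.21 and 1.39. Krt18, a keratin of simple epithelia, was at 27.2 and 33.9 CPM in Control and 181 and 170 CPM in Uox_KO and rose by 2.53 ± 0.13 (adjusted p = 1.54e-07). Its partner Krt8 was at 118 and 117 CPM in Control and 312 and 270 CPM in Uox_KO and rose by 1.32 ± 0.12 (adjusted p = 8.02e-06). Krt7, a keratin of ducts, was at 162 and 189 CPM in Control and 393 and 510 CPM in Uox_KO and rose by 1.38 ± 0.15 (adjusted p = 2.52e-05). Krt19 was near the floor in Control, at 0.762 and 0.857 CPM, and stood at 36.0 and 30.9 CPM in Uox_KO (adjusted p = 2.78e-07). The sections of the genotypes did not overlap for any of these 4 keratins. The mucin Muc1 rose by 1.72 ± 0.15, the tight junction genes Cldn4 and Cldn3 by 1.60 ± 0.16 and 1.90 ± 0.20, and Npnt, a matrix ligand of the ureteric bud lineage, by 1.17 ± 0.11, with adjusted p between 6.14e-06 and 2.56e-05. Dcdc2a, Wnt7b, Cldn7, Epcam and Mal were also among the 14, and of these Cldn7, Epcam and Mal lost their calls without Control section 1 (adjusted p = 0.116, 0.115 and 0.274) and Mal also without Control section 2 (0.214). Apela, one of the genes that stood highest in the members against the other spots, did not pass the test, at 53.9 and 62.1 CPM in Control and 40.5 and 56.1 CPM in Uox_KO. Several of these keratins and claudins are also expressed by urothelium. Without the spots that hold urothelium or fat RNA the differences were 2.52 for Krt18, 1.35 for Krt8, 1.38 for Krt7 and 1.61 for Cldn4. The rise was not particular to the member spots. In the other spots 15 of 22 tested genes of the list rose and 4 fell (median 0.87), beside 34.7% and 32.7% over all genes there. Krt18, Krt8, Krt7, Krt19, Cldn4 and Cldn3 were among the 15.

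Of 14 transcription factors of the principal cell, 5 rose and 1 fell (median 0.27), beside 15.3% and 14.5% over all genes. Elf3, an epithelial ETS factor, was at 17.03 and 18.2 CPM in Control and 71.7 and 58.6 CPM in Uox_KO and rose by 1.89 ± 0.16 (adjusted p = 3.60e-06). Gata3, needed for the collecting duct lineage, was at 20.8 and 19.1 CPM in Control and 27.8 and 49.2 CPM in Uox_KO and rose by 0.97 ± 0.23 (adjusted p = 0.00693). Hoxd8 rose by 0.73 ± 0.17 (adjusted p = 0.00595), Tfcp2l1 by 0.49 ± 0.13 (adjusted p = 0.0147) and Mecom by 0.56 ± 0.19 (adjusted p = 0.0462). Gata2 and Hoxb7 did not pass, at 42.7 and 50.4 CPM in Control and 39.5 and 41.6 CPM in Uox_KO for Gata2 and at 30.0 and 22.7 CPM and 29.9 and 29.6 CPM for Hoxb7. Of the 5 that rose, Elf3 alone was called both without Control section 1 and without Control section 2. There the adjusted p of Gata3 were 0.0579 and 0.0987, of Hoxd8 0.118 and 0.102, of Tfcp2l1 0.236 and 0.157 and of Mecom 0.159 and 0.302. Without Uox_KO section 2, Gata3 was at 0.0592 and Mecom at 0.459.

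Of 14 tested genes of prostaglandin, endothelin and nitric oxide signalling, 6 rose and 0 fell (median 0.32), beside 15.3% and 14.5% over all genes. There were 3 higher without Control section 1, 4 without Control section 2, and 4 higher with 2 lower without Uox_KO section 2. Ptges, which makes prostaglandin E2, was at 51.8 and 46.1 CPM in Control and 105 and 154 CPM in Uox_KO and rose by 1.42 ± 0.17 (adjusted p = 4.69e-05). Ptgs1, the constitutive cyclooxygenase upstream of it, rose by 0.66 ± 0.15 (adjusted p = 0.00477, and 0.118 without Control section 1), and the prostaglandin carrier Slco2a1 by 1.21 ± 0.23 (adjusted p = 0.00189). Edn1, endothelin 1, was at 1.02 and 1.93 CPM in Control and 12.7 and 11.0 CPM in Uox_KO and rose by 2.96 ± 0.38 (adjusted p = 1.05e-04). Among 11 tested osmolyte and urea genes 2 were higher and 3 lower, beside 15.3% and 14.5% over all genes. Their median log2 difference was 0.07, and 0.07 without Control section 2, so the list as a whole showed no clear shift. Within it Sord, which turns sorbitol to fructose and is strong in the proximal tubule, fell by 1.17 ± 0.14 (adjusted p = 6.89e-05). The small heat shock protein Cryab, at 40.7 and 47.4 CPM in Control and 153 and 97.4 CPM in Uox_KO, rose by 1.51 ± 0.18 (adjusted p = 7.02e-05).

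Intercalated cell genes in the same spots went the other way: 7 of 14 fell in Uox_KO and 0 rose (median -0.51), beside 14.5% and 15.3% over all genes. Slc4a9, the bicarbonate carrier of the beta intercalated cell, was at 113 and 143 CPM in Control and 63.5 and 71.2 CPM in Uox_KO and fell by 0.91 ± 0.14 (adjusted p = 3.29e-04). Slc26a4, pendrin, was at 296 and 350 CPM in Control and 141 and 232 CPM in Uox_KO and fell by 0.78 ± 0.19 (adjusted p = 0.00759), and Hmx2, a homeobox factor, fell by 0.81 ± 0.14 (adjusted p = 9.85e-04). The receptor gene Insrr fell by 0.77 ± 0.17, the oxoglutarate receptor gene Oxgr1 by 0.90 ± 0.22 and the proton pump genes Atp6v1c2 and Atp6v1g3 by 0.65 ± 0.19 and 0.77 ± 0.24, with adjusted p between 0.00517 and 0.0289. Slc4a1, the anion exchanger of the alpha intercalated cell, was at 66.8 and 75.9 CPM in Control and 45.0 and 64.6 CPM in Uox_KO, and Foxi1, the intercalated cell factor, at 81.8 and 104 CPM and 61.8 and 82.6 CPM, and neither passed the test. Without Control section 1 the count was 3 lower of 14 (Slc4a9, Hmx2 and Insrr), and without Control section 2 it was 2, Slc4a9 and Hmx2 with adjusted p of 0.0210 and 0.0441. The adjusted p of Slc26a4 were then 0.0506 and 0.142. Without Uox_KO section 1 there were 7 lower and 1 higher, and without Uox_KO section 2 there were 12 lower.

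Connecting tubule genes stood apart in Uox_KO section 2. S100g, the calcium-binding calbindin D9k, was at 3501 and 3379 CPM in Control, 3142 CPM in Uox_KO section 1 and 12920 CPM in Uox_KO section 2. Klk1, tissue kallikrein, was at 4788 and 5475 CPM in Control, 2553 CPM in Uox_KO section 1 and 7657 CPM in Uox_KO section 2. Neither passed the test (adjusted p = 0.0522 and 0.996). The calcium channel Trpv5 was at 21.1 and 16.1 CPM in Control and 54.9 and 104 CPM in Uox_KO and rose by 2.13 ± 0.26 (adjusted p = 6.44e-05), and Calb1, calbindin D28k, was at 595 and 505 CPM in Control and 909 and 2491 CPM in Uox_KO and rose by 1.64 ± 0.33 (adjusted p = 0.00247). Slc8a1, the sodium calcium exchanger, was at 262 and 227 CPM in Control and 260 and 701 CPM in Uox_KO and rose by 0.99 ± 0.31 (adjusted p = 0.0301). The calls of Calb1 and Slc8a1 were lost without Control section 1 (adjusted p = 0.0515 and 0.153) and without Control section 2 (0.0846 and 0.250), and that of Slc8a1 without Uox_KO section 2 (0.393). Together 3 of 6 tested genes rose and 0 fell (median 1.11), beside 15.3% and 14.5% over all genes. The median was 1.17 without Control section 1 and 1.04 without Control section 2. Without Uox_KO section 2 there were 2 higher and 1 lower, and the median was 0.12.

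**Figure D4:**
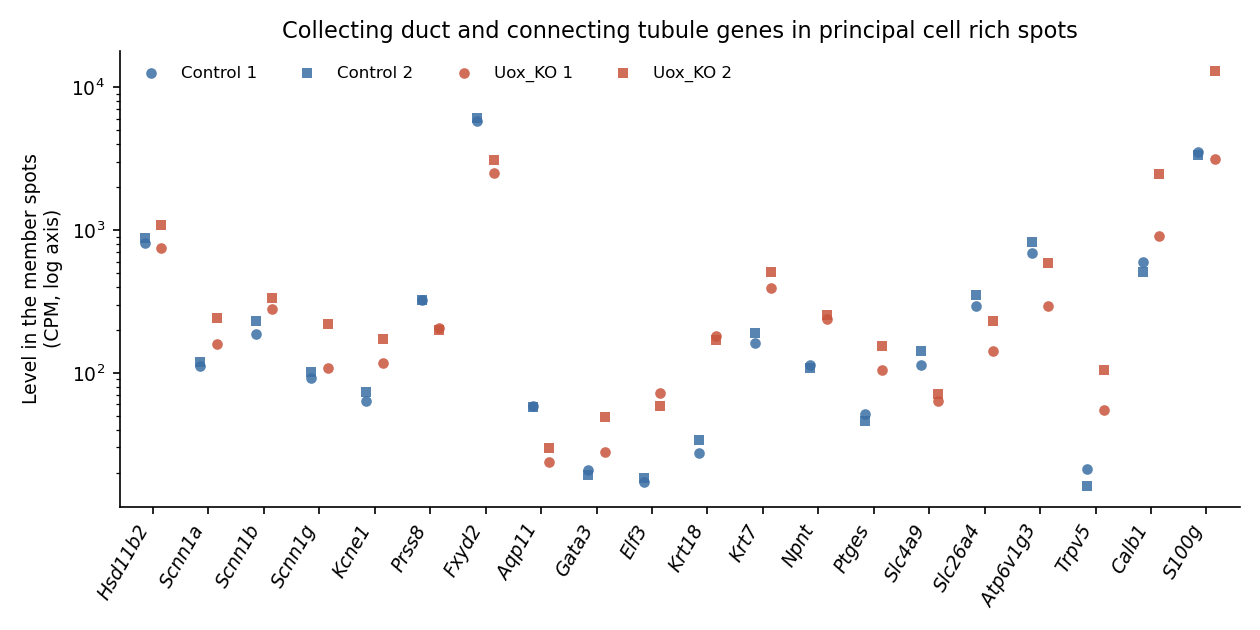
Level (CPM, log axis) of 20 collecting duct and connecting tubule genes in the member spots, 1 point per section, Control left and Uox_KO right of each gene. The genotypes do not overlap for Krt18 (27.2 and 33.9 against 181 and 170 CPM) and overlap for Hsd11b2, and S100g stands apart in Uox_KO section 2 at 12920 CPM.

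Genes of injury, inflammation and scarring were also higher in the member spots of Uox_KO. Of 27 tubular injury genes 22 were higher and 1 lower (median 1.84), of 20 extracellular matrix genes 20 were higher (median 2.43), of 12 macrophage genes 12 were higher (median 2.57), and of 20 interferon response genes 13 were higher (median 1.14). Over all genes 15.3% were higher and 14.5% lower. The rise was not particular to the member spots. In the other spots 25 of 27, 21 of 21, 12 of 12 and 18 of 20 were higher, beside 34.7% over all genes there. Their medians were 2.53, 3.12, 3.43 and 1.73, and 1 injury gene was lower. Lcn2, an iron-scavenging injury protein of the distal nephron, was at 2.03 and 1.71 CPM in Control and 232 and 107 CPM in Uox_KO and rose by 6.49 ± 0.43 (adjusted p = 7.26e-07). Havcr1, the injury protein KIM-1 of the proximal tubule, was at 0 and 0.214 CPM in Control and 42.6 and 38.8 CPM in Uox_KO (adjusted p = 1.19e-07). Spp1, osteopontin, was at 719 and 699 CPM in Control and 7301 and 6270 CPM in Uox_KO and rose by 3.27 ± 0.19 (adjusted p = 2.78e-07). Wfdc2, a protease inhibitor of distal epithelia, was at 352 and 388 CPM in Control and 1113 and 1238 CPM in Uox_KO and rose by 1.68 ± 0.14 (adjusted p = 3.82e-06), while its relative Wfdc15b was at 306 and 386 CPM in Control and 44.6 and 37.2 CPM in Uox_KO and fell by 3.07 ± 0.16 (adjusted p = 1.19e-07). The complement gene C3 rose by 4.91 ± 0.20 (adjusted p = 1.88e-08), and the chemokines Cx3cl1 and Cxcl16 by 1.21 ± 0.13 and 1.22 ± 0.19 (adjusted p = 2.52e-05 and 4.21e-04). The chemokine Ccl2 had 0 UMIs in Control and 16.1 and 15.1 CPM in Uox_KO, at least 50.1-fold higher against 3 counts over both Control sections. The proliferation gene Mki67 was at 2.03 and 1.5 CPM in Control and 20.6 and 21.4 CPM in Uox_KO (adjusted p = 4.08e-06). Whether principal cells or neighbours in the same spots carried these RNAs was not tested, and the macrophage list moved with them as given above.

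The largest rises and falls were taken among called genes that averaged 10 CPM or more and whose sections did not overlap between genotypes, predicted genes left out. The 10 largest rises in the member spots included Ltbp2, Havcr1, Cfd, Hp, Cck, Retn, Lcn2, Ubd and Serpina10. Ltbp2, an extracellular matrix protein, had 0 UMIs in Control and 82.4 and 30.3 CPM in Uox_KO, at least 177-fold higher against 3 counts over both Control sections. The peptide hormone gene Cck was at 0.508 and 0.214 CPM in Control and 52.2 and 19.5 CPM in Uox_KO. Ubd, a ubiquitin-like protein induced by interferon, was at 0 and 0.643 CPM and 41.2 and 24.6 CPM. Cfd, Hp and Retn are fat genes that were far higher in the other spots of Uox_KO, and the Cfd difference of 7.94 was 6.51 without the spots holding fat or urothelium RNA. The largest falls were Pvalb, Hbb-bs, Hba-a1, Hbb-bt, Alas2, Ces1g, Slc34a3, Hpd, Hba-a2 and Clec2h. Pvalb, a calcium buffer of the distal convoluted tubule, was at 62.3 and 66.0 CPM in Control and 0.343 and 0.315 CPM in Uox_KO. The 4 globin genes and Alas2, which makes haem in red cell precursors, fell by 3.86 to 4.98 on the log2 scale, and all 5 genes of the red blood cell list were lower. Near-identical globin copies can share reads, so their single values are uncertain. Proximal tubule genes were lower too: 8 of 9 S1 and S2 genes fell, with a median of -1.71, among them the glucose carrier Slc5a2 at 349 and 338 CPM in Control and 25.1 and 48.2 CPM in Uox_KO. Over all genes 14.5% were lower in the members and 32.7% in the other spots. In the other spots 8 of the 9 and all 5 red blood cell genes were lower as well, with medians of -1.34 and -3.36.

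Whether the genotype difference in the member spots differed from that in the other spots was tested with a spot class by genotype term. Of 15641 genes, 6.28% passed, 2.23% with a more positive and 4.05% with a more negative difference in the members, and the median over all genes was -0.08. That median and the balance of the 2 directions moved with the setting, from 31.9% to 67.3% of calls on the positive side, so counts are read against the median and single genes by their size. Without Control section 1 there were 501 calls and without Control section 2 there were 449, in place of 983. Intercalated and connecting tubule genes were on the positive side: 13 of 14 and 5 of 6 passed, with medians of 2.05 and 1.95, and 13 and 5 passed under all 18 alternatives. Slc26a4 differed by 2.64 ± 0.13 (adjusted p = 2.00e-21): it was lower in Uox_KO by 0.78 on the log2 scale in the members and by 3.45 in the other spots, where it went from 68.1 and 82.6 CPM to 3.39 and 11.0 CPM. Hmx2 differed by 2.46 ± 0.20 (adjusted p = 3.32e-13) and likewise was less reduced in the members. Hsd11b2 differed by 2.38 ± 0.12 (adjusted p = 2.00e-21), with no call in the members and a difference of -2.25 in the other spots (adjusted p = 0.00151). Calb1 and Trpv5 differed by 2.34 ± 0.10 and 2.32 ± 0.18 (adjusted p = 1.24e-23 and 7.06e-14) and did not pass the test in the other spots. Scnn1b and Scnn1g, higher in the members, were lower in the other spots by 1.46 and 1.25 and differed by 1.98 in both cases (adjusted p = 9.87e-19 and 5.92e-18). In the aldosterone list 9 of 21 were on the positive side and 2 on the negative, among the latter Sgk1, which did not pass the test in the members and was at 51.8 and 51.2 CPM in the other spots of Control and 89.7 and 88.1 CPM in those of Uox_KO (term -0.72 ± 0.10, adjusted p = 1.70e-07). The scores that chose the spots spread differently in the 2 genotypes, as given above, and the part of this in the term was not tested. In spots of a shared score range (4.40 to 7.17 in all sections, a choice made after the data were seen) the differences were 1.87 for Slc26a4, 1.65 for Hsd11b2, 2.48 for Calb1 and 1.54 for Scnn1b. All spots outside that range counted as other spots there, also those scoring above 7.17. These numbered 6 in Control section 2 and 22 and 23 in the Uox_KO sections. The other spots thus held the spots richest in the markers, so these values do not isolate the score spread.

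Ier3, an early stress response gene, and Ptges also differed between the spot classes and were chosen after their values were seen. Ier3 was at 48.3 and 53.8 CPM in Control members and 133 and 232 CPM in Uox_KO members, and at 51.6 and 62.4 CPM in the other spots of Control and 40.1 and 58.1 CPM in those of Uox_KO. Its term was 2.04 ± 0.11 (adjusted p = 3.71e-20). Ptges was at 15.4 and 19.3 CPM in the other spots of Control and 13.0 and 25.3 CPM in those of Uox_KO, and its term was 1.28 ± 0.13 (adjusted p = 1.46e-10). The keratin Krt18 rose in both classes, by 2.53 in the members and 2.69 in the other spots, and its term of -0.25 ± 0.12 did not pass (adjusted p = 0.309). Elf3 rose by 1.89 and 1.95, with a term of -0.14 ± 0.16 (adjusted p = 0.769).

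Inflammatory genes were on the negative side. All 7 MHC class II genes, 9 of 12 macrophage genes, 11 of 21 extracellular matrix genes and 13 of 27 injury genes had a term below 0 that passed the test, with medians of -0.87, -0.95, -0.68 and -0.73. Over all genes tested 4.05% had such a term, and the median was -0.08. Leaving out 1 section at a time left between 4 and 7 of the MHC class II genes and between 3 and 9 of the macrophage genes, between 5 and 14 of the matrix genes and between 4 and 16 of the injury genes. Cd74, the invariant chain, was at 205 and 189 CPM in Control members and 958 and 641 CPM in Uox_KO members, and at 146 and 133 CPM in the other spots of Control and 1163 and 1048 CPM in those of Uox_KO, a term of -0.997 ± 0.09 (adjusted p = 1.04e-11). The largest negative terms among the genes that the naming rule allowed belonged to Thrsp, Ly6d, Fabp4, Fasn and Car3. Ly6d turned to 1.16 with the top 10% of spots and to 2.60 with the score without Aqp2. Fabp4, a fatty acid carrier, Fasn, the fatty acid synthase, Thrsp, a regulator of fat synthesis, and Car3, a carbonic anhydrase, are all abundant in fat. In the adipocyte list 0 of 6 genes passed in either direction, with a median term of 0.05.

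**Figure D5:**
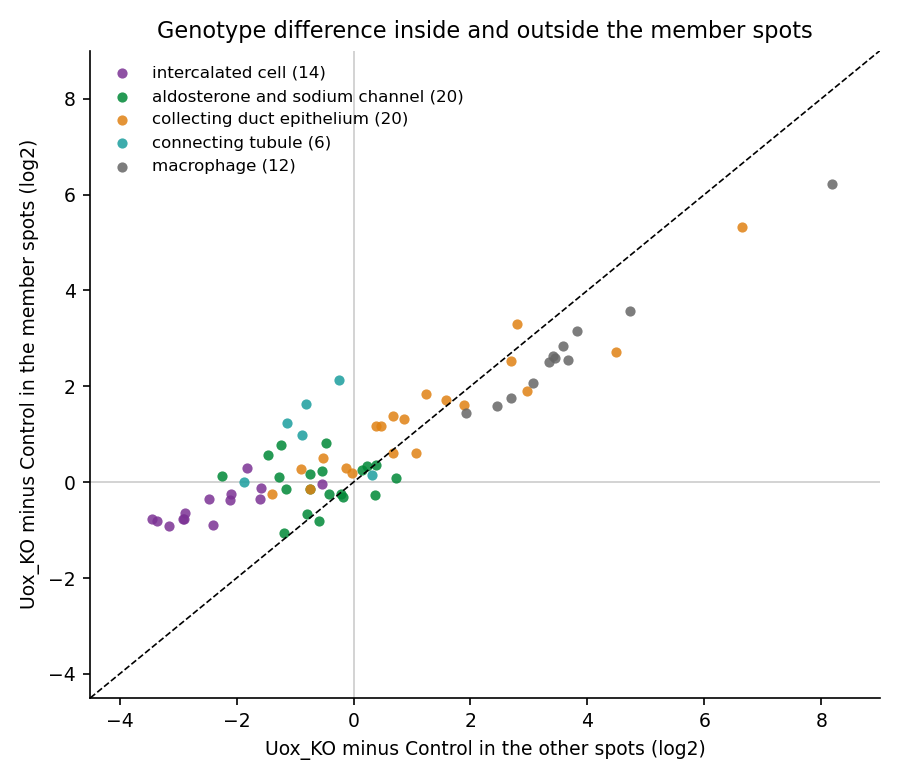
Log2 difference between Uox_KO and Control in the member spots (vertical axis) against that in the other spots (horizontal axis) for the tested genes of 5 lists, 1 point per gene, with the number of genes in the legend and a dashed line of equality. Intercalated cell genes lie left of -0.5 on the horizontal axis and nearer 0 on the vertical one, and all 12 macrophage genes lie below the line.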

How the data were processed

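Visium spatial transcriptomes of 4 kidney sections, 2 per genotype, were used. The deposited matrices hold UMI counts per gene and spot as the authors left them, made with Space Ranger 1.3.1 on mm10 per the submitters' processing notes and list the spots the authors kept. From these counts, members were chosen in each section as described in the report, and counts were summed over member and over other spots of each section, which is the replicate. No doublet caller was run and no spot was removed. Sums were compared with edgeR 4.0.16 (R 4.3.3): filterByExpr, TMM scaling, the quasi-likelihood test and Benjamini-Hochberg adjustment over all genes tested, called at an adjusted p below 0.05. The genotype fit used the 2 sections of each genotype, members against other spots had the section as a block, and the spot class by genotype term was fitted with section blocks. The 4 score genes were left out of all tests. With 2 sections per genotype, and no statement of separate runs, p-values of the genotype fits measure the spread between these sections. This spread may be in part technical. In the fits with section blocks, p-values rest on how the difference between spot classes varied over sections. In all fits the spread of a gene is estimated in part from other genes, so very small p-values still rest on few sections. Named genes were the 10 largest rises and 10 largest falls (5 for the spot class by genotype term) among called genes that averaged 10 CPM or more, and members of the lists. The members and the lists were chosen with earlier results of these data known. The procedure was tested on simulated data. Alternatives were other shares of spots (2.5% and 10%), 1 score limit for all sections, scores without each marker, spots thinned to 5000 UMIs, choosing on 1 part of the UMIs and measuring on the other, other tissue spots or mitochondrial genes left out, DESeq2 1.42.0, no filter on low counts, the replicate block, each section left out, and a shared score window. Replicate numbers did not pair the sections. Promoter sequences came from RefSeq's table for GRCm38.p6. Some genes that the naming rule or the lists hold are not reported here.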

Additional observations from a re-analysis of the deposited data

Results flagged for a closer look

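For 10 genes the genotype difference in the member spots differed from that in the other spots, by edgeR's quasi-likelihood test of the spot class by genotype term. The terms were 2.64 for Slc26a4, 2.46 for Hmx2, 2.38 for Hsd11b2, 2.34 for Calb1 and 2.32 for Trpv5, each called under all 18 alternatives. They were -2.80 for Thrsp, -2.26 for Fabp4, -2.14 for Fasn and -2.12 for Car3, where Fabp4 and Fasn were called under all 18, and the adjusted p of Thrsp and Car3 were 0.103 and 0.138 with the top 10% of spots and 0.188 and 0.068 with the score without Aqp2. Ly6d, a surface protein of several epithelia and of lymphocytes, had a term of -2.65 (adjusted p = 0.0178) on few UMIs, at 2.03 and 0.643 CPM in Control members and 20.9 and 1.89 CPM in Uox_KO members, and at 0.729 and 0.611 CPM and 47.5 and 24.2 CPM in the other spots. Without Control section 1 its adjusted p was 0.626. Its term turned to 1.16 with the top 10% of spots and to 2.60 with the score without Aqp2.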

How the results depend on the processing

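Replicate numbers did not pair the sections (correlation of deviations 3.62e-04 over 11900 genes). With the replicate number as a block, 3943 genes were called between genotypes in the members and 11335 in the other spots, in place of 3544 and 10991. In the members DESeq2 called 1882 genes, and leaving out 1 section gave 1553 to 3990. Members against other spots gave 1959 to 2409 calls with 1 section left out, in place of 3060. The spot class by genotype term had 983 calls, against 332 with the top 10% of spots, 643 with thinned spots, 550 when chosen and measured on separate UMIs, 331 by DESeq2, and 449 to 1453 with 1 section left out. Its split was 349 positive and 634 negative, and turned to 640 and 344 with the top 2.5%, 433 and 210 with thinned spots, 441 and 303 in the score window (chosen after the data were seen), 323 and 178 without Control section 1 and 261 and 188 without Control section 2, as the median over all genes moved from -0.08 to between 0.05 and 0.08; by DESeq2 it was 169 and 162. Klk1 in the members was at 0.59 without Uox_KO section 1 and -0.98 without section 2, in place of 0.00. Ly6d turned to 1.16 with the top 10% of spots and 2.60 with the score without Aqp2. Of 2259 values for 128 results on single genes under the alternatives, 2073 were counted as unchanged. For a called gene this means the same direction and a call. For a gene without a call it means no call, whatever its direction. For a marker's share in the members it means a move smaller than the SD of the 2 sections. Of the others 149 lost and 32 gained a call, 3 reversed and 2 shares moved further. Leaving out Control section 1 or 2 changed 30 calls each. The cause was not tested. With 2 sections per genotype, and 2513358 to 4715749 UMIs in the members of a section, genes of a few CPM rest on few UMIs.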
